A study of Mus musculus with 5 samples.

Results

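The sites described here are SOX11-FLAG ChIP-seq peaks that lie close together in the genome of mouse keratinocytes. A peak was called dense if at least 4 other peaks of the SOX11 list had their centres within 25 kb of its own centre, and dense peaks with centres within 25 kb of each other were chained into a cluster. Of 21270 SOX11 peaks, 516 (2.43%) were dense, and they formed 203 clusters. The members were thus chosen by the measured positions of the SOX11 peaks, so their density is given as a description with no test. The cells were primary keratinocytes of newborn mice with the genotype Krt14-Cre;Sox11fl/fl;Sox4fl/fl and a strain background labelled mixed 129SvEx:C57BL/6. Per the study's methods that background is of the floxed line, which also carried Sox12-/- before it was crossed to FVB/N mice with *Krt14-Cre*, and the labels do not give the *Sox12* genotype of the cells. Both endogenous genes were therefore deleted by a Cre driven from the *Krt14* promoter, and a lentivirus carried a doxycycline-inducible *Sox11* or *Sox4* with a FLAG tag, which was induced with doxycycline for 24 h. There were 2 replicates of SOX11-FLAG, 2 replicates of SOX4-FLAG and 1 control library of the same genotype, titled input but with IgG in its antibody field. Both replicates of a factor were combined by the authors in 1 list, and the lists hold 21270 SOX11 peaks and 2669 SOX4 peaks by position alone. Height, depth and the spread between replicates are therefore unknown, and the cells are a model of a tagged, induced factor in the absence of both endogenous proteins.

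SOX11 and SOX4 belong to the SoxC group of transcription factors, which bind DNA through an HMG box and bend it. Both are expressed in the embryonic epidermis and at the edge of skin wounds, where keratinocytes migrate and remodel their actin and microtubule cytoskeleton. Binding sites of a transcription factor often lie in groups around a gene, at its promoter and at distal elements, and AP-1 and TEAD factors occupy many such elements in epithelial cells.

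The sequences of 8 dense peaks are shown because each is the dense peak that came first in the SOX11 list within 1 of the 8 clusters with the most dense peaks. They were read from the plus strand of mm9, 5′ to 3′, and each is named after the gene with the nearest transcription start. Capitals mark the SOX core (CATTGT or CTTTGT) and the AP-1 core (TGAGTCA or TGACTCA) on either strand. The *Tubb5* peak is shown without the 82 bases that lie in an annotated UTR.
*Cldn23* cluster, chr8:36944881-36945138, plus strand: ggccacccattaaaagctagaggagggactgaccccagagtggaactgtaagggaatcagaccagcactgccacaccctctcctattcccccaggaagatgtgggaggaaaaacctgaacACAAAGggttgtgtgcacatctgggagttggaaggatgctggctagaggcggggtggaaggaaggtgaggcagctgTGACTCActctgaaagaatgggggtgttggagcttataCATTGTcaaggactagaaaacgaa
*Vangl1* cluster, chr3:101997607-101997864, plus strand: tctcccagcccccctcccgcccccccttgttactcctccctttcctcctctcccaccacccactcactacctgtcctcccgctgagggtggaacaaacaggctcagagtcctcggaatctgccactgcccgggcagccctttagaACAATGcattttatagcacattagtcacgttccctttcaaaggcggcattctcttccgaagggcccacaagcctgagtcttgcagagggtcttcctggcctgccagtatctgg
*Dcst1* cluster, chr3:89163663-89163920, plus strand: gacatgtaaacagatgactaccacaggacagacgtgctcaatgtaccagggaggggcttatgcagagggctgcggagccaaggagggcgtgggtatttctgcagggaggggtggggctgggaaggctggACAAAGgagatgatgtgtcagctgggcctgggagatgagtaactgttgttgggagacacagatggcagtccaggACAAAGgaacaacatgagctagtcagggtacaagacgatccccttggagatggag
*Tubb5* cluster, chr17:35975252-35975427, plus strand: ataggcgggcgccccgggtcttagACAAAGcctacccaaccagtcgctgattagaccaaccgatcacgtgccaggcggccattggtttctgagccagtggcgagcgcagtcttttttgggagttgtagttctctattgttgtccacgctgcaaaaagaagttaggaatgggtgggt
*Dstn* cluster, chr2:143715881-143716138, plus strand: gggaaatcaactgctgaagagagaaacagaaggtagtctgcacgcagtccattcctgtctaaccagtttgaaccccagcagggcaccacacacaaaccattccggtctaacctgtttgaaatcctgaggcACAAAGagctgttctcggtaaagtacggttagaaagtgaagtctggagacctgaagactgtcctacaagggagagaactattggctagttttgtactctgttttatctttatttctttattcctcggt
*Herpud1* cluster, chr8:96887219-96887476, plus strand: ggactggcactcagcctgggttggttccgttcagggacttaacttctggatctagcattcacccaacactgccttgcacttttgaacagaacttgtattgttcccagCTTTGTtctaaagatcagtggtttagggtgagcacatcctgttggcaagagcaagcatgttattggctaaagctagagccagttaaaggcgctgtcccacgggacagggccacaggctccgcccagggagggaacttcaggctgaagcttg
*Ddb2* cluster, chr2:91082780-91083037, plus strand: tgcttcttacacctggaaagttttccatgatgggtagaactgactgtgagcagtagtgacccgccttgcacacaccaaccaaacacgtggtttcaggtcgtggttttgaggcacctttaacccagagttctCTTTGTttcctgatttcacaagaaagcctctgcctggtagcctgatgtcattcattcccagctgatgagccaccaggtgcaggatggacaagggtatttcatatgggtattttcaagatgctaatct
*Hs1bp3* cluster, chr12:8393542-8393799, plus strand: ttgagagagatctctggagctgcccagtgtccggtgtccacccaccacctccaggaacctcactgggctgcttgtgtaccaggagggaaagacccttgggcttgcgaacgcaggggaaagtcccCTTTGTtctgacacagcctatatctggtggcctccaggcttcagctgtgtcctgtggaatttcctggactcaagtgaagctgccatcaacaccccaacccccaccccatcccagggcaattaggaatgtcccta

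All 8 sequences held at least 1 SOX core, and the *Cldn23* and *Dcst1* peaks held 2. The *Cldn23* peak was the only 1 of the 8 with an AP-1 core. Of the 8 peaks, 7 overlapped a SOX4 peak, the exception being the *Hs1bp3* peak. Over all SOX11 peaks the share with SOX4 overlap was 11.9%, and among the first 2127 peaks of the list it was 62.0%. The 8 were picked by list place and all lay among those 2127, so their count does not stand for dense peaks in general. The *Tubb5* peak lay at a promoter, the peaks of the *Vangl1*, *Dcst1* and *Herpud1* clusters in introns and the other 4 between genes. Their places in the list ran from 215 for the *Tubb5* peak to 1917 for the *Hs1bp3* peak. Over all SOX11 peaks, which are 258 bp wide except for 15 narrower ones, 58.5% held a SOX core and 28.5% an AP-1 core.

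The number of neighbours fell off steeply. Of the SOX11 peaks, 8614 had no other peak within 25 kb, 6998 had 1, 3685 had 2 and 1457 had 3. Just inside the threshold were 409 peaks with 4 others, and 88, 14 and 5 peaks had 5, 6 and 7 others, the highest number found. The mean over all peaks was 0.984 others with an SD of 1.06. Dense peaks lay on every autosome, from 0.687% of the SOX11 peaks of chromosome 7 to 3.95% of those of chromosome 3. No dense peak was found among the 326 SOX11 peaks of the X chromosome, a count of 0 that allows a share of up to 0.920% for counting error alone.

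**Figure D1:**
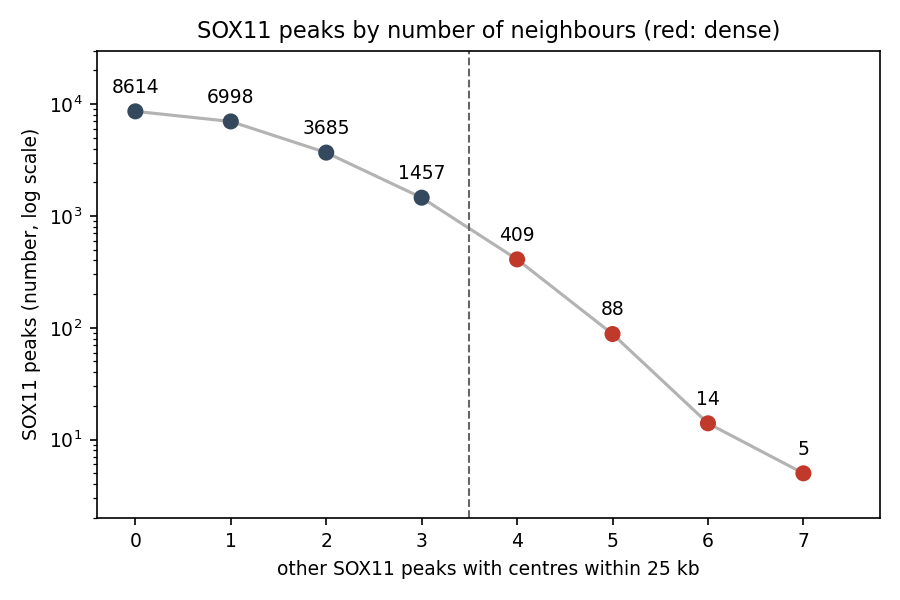
Number of SOX11 peaks (log scale) by the number of other SOX11 peaks with centres within 25 kb. Red points right of the dashed line are the dense peaks, from 409 peaks with 4 others to 5 peaks with 7 others.

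Most clusters were small. A single dense peak made up 76 of the 203 clusters, where its 4 or more neighbours did not themselves have enough neighbours to be dense. There were 95 clusters of 2 to 4 dense peaks and 32 clusters of 5 or more, which together held 184 dense peaks. The dense peaks and the 641 further SOX11 peaks within 25 kb of them made up 5.44% of the list. Clusters of 5 or more spanned 17.0 to 61.7 kb, with a median of 28.4 kb. Adjacent dense peaks of a cluster had a median distance of 6.82 kb between centres, beside 37.1 kb for adjacent SOX11 peaks of the whole list, a difference that the choice of members fixes. The smallest distance was 525 bp within a cluster and 494 bp in the whole list. Of the 32 clusters of 5 or more, 22 held a transcription start of a protein-coding gene. A further 3 overlapped a gene body without holding a start, and 7 had neither.

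The 12 clusters with the most dense peaks held 6 to 10 each. They are described from the largest to the smallest in number of dense peaks, with coordinates of mm9 counted from 1. Peaks of a cluster are neighbours in 1 list and do not count as independent observations.

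The cluster with the most dense peaks lay between genes at chr8:36923378-36983703, spanned 60.3 kb and held 10 dense peaks, all 10 intergenic. The nearest start for each of them was that of *Cldn23*, which encodes a claudin of tight junctions, and the peaks lay 33.9 to 94.0 kb upstream of it. Of the 10 peaks, 6 held a SOX core, 3 an AP-1 core and 4 a TEAD core (GGAATG), and none held the GC box CCCGCCC. A single SOX4 peak lay in the span, over the dense peak at place 1142 of the SOX11 list, which was also the first of the 10 in that list.

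A cluster of 9 dense peaks at chr3:101956868-102018585 covered *Vangl1*, which encodes a membrane protein of planar cell polarity, and reached towards *Casq2*, the calsequestrin of the heart. The nearest start was that of *Vangl1* for 8 of the 9 peaks. A pair of peaks lay at the *Vangl1* promoter with centres 51 bp upstream and 66 bp downstream of transcription starts, and 4 lay in introns. SOX4 peaks overlapped 2 dense peaks, the intronic peak at place 277 of the SOX11 list and a promoter peak at place 13285. Another SOX4 peak, at place 36 of the SOX4 list, overlapped a SOX11 peak at place 42 that lay within 25 kb of the cluster but was not dense.

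The cluster of 8 dense peaks at chr3:89124723-89163920 held starts of *Efna3* and *Efna4*, which encode ephrin-A ligands of Eph receptors, of *Adam15*, a membrane metalloprotease, and of *Dcst1*. Only 1 of these 8 peaks lay at a promoter, 50 bp upstream of an *Adam15* start. None of the 8 held an AP-1 or TEAD core, whereas 5 held a SOX core and 3 the GC box. SOX4 peaks overlapped 2 of them, an intronic peak 303 bp downstream of an *Efna4* start and the intronic peak 4324 bp upstream of a *Dcst1* start.

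The other cluster of 8 dense peaks, at chr17:35932704-35975427, covered the neighbouring starts of *Ier3*, an immediate early response gene, *Flot1*, which encodes the membrane raft protein flotillin-1, and *Tubb5*, a β-tubulin gene. Promoters held 4 of its 8 peaks: 1 each at *Ier3* and *Flot1*, and 2 at *Tubb5*. The remaining 4 lay between genes, 8152 to 25796 bp upstream of *Ier3*. SOX4 peaks overlapped the first and the last dense peak of the span, 25.8 kb upstream of *Ier3* and 48 bp upstream of *Tubb5*, which had places 233 and 215 in the SOX11 list. This cluster had 5 peaks with a SOX core and 1 with an AP-1 core.

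The remaining 8 of these clusters held 6 dense peaks each. At chr2:143715881-143741803 the nearest start of all 6 was that of *Dstn*, which encodes the actin-depolymerising protein destrin. The peaks ran from 25046 bp upstream of the gene to 619 bp downstream of its start, and the outermost upstream peak alone overlapped a SOX4 peak. At chr8:96887219-96914720 all 6 peaks were nearest to *Herpud1*, a gene of the endoplasmic reticulum stress response. Promoter positions were taken by 2 of the 6. The peak farthest from *Herpud1*, 23.0 kb upstream and in an intron of *Slc12a3*, alone overlapped a SOX4 peak. In both clusters the distal peak was also the first of the 6 in the SOX11 list.

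At chr2:91077283-91105474 the peaks were divided among *Ddb2*, a DNA damage recognition gene, with 3, *Pacsin3*, which encodes a membrane-bending protein of endocytosis, with 2, and *Arfgap2*, a GTPase-activating protein of Golgi transport, with 1. SOX cores were found in 5 of the 6. The intergenic peak 5770 bp upstream of *Ddb2* was the only dense peak of this cluster over a SOX4 peak. The cluster at chr12:8364277-8393799 lay between genes, with all 6 peaks 44.2 to 73.4 kb from the start of *Hs1bp3* and no SOX4 peak in its span.

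A cluster at chr3:88398088-88427859 held the start of *Arhgef2*, which encodes a microtubule-associated guanine nucleotide exchange factor. All 6 of its dense peaks held a SOX core, none held an AP-1 core, none was at a promoter and none overlapped a SOX4 peak. The nearest start was that of *Arhgef2* for 5 peaks and that of *Ssr2*, a subunit of the translocon-associated complex, for 1. At chr11:98943449-98977457 all 6 peaks were nearest to *Tns4*, a tensin of focal adhesions, at 5.82 to 26.7 kb from its starts, again with no SOX4 peak and no promoter peak.

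The cluster at chr13:34188008-34223207 lay at the neighbouring β-tubulin genes *Tubb2a* and *Tubb2b* and held the start of the latter. It was made of 3 close pairs of peaks, with a smallest distance of 0.645 kb and a largest of 17.2 kb between adjacent centres. All 6 peaks held a SOX core, 2 held an AP-1 core and 2 lay at the *Tubb2b* promoter, and SOX4 peaks overlapped 1 peak near each end. The last of the 12, at chr9:106279650-106315660, was also made of 3 pairs and lay between *Dusp7*, which encodes a phosphatase of ERK kinases, and the ribosomal protein gene *Rpl29*. All 6 of its peaks were intergenic and held a SOX core, and 5 of the 6 were in the first 10% of the SOX11 list. Its SOX4 peaks overlapped the dense peaks at places 594 and 370.

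**Figure D2:**
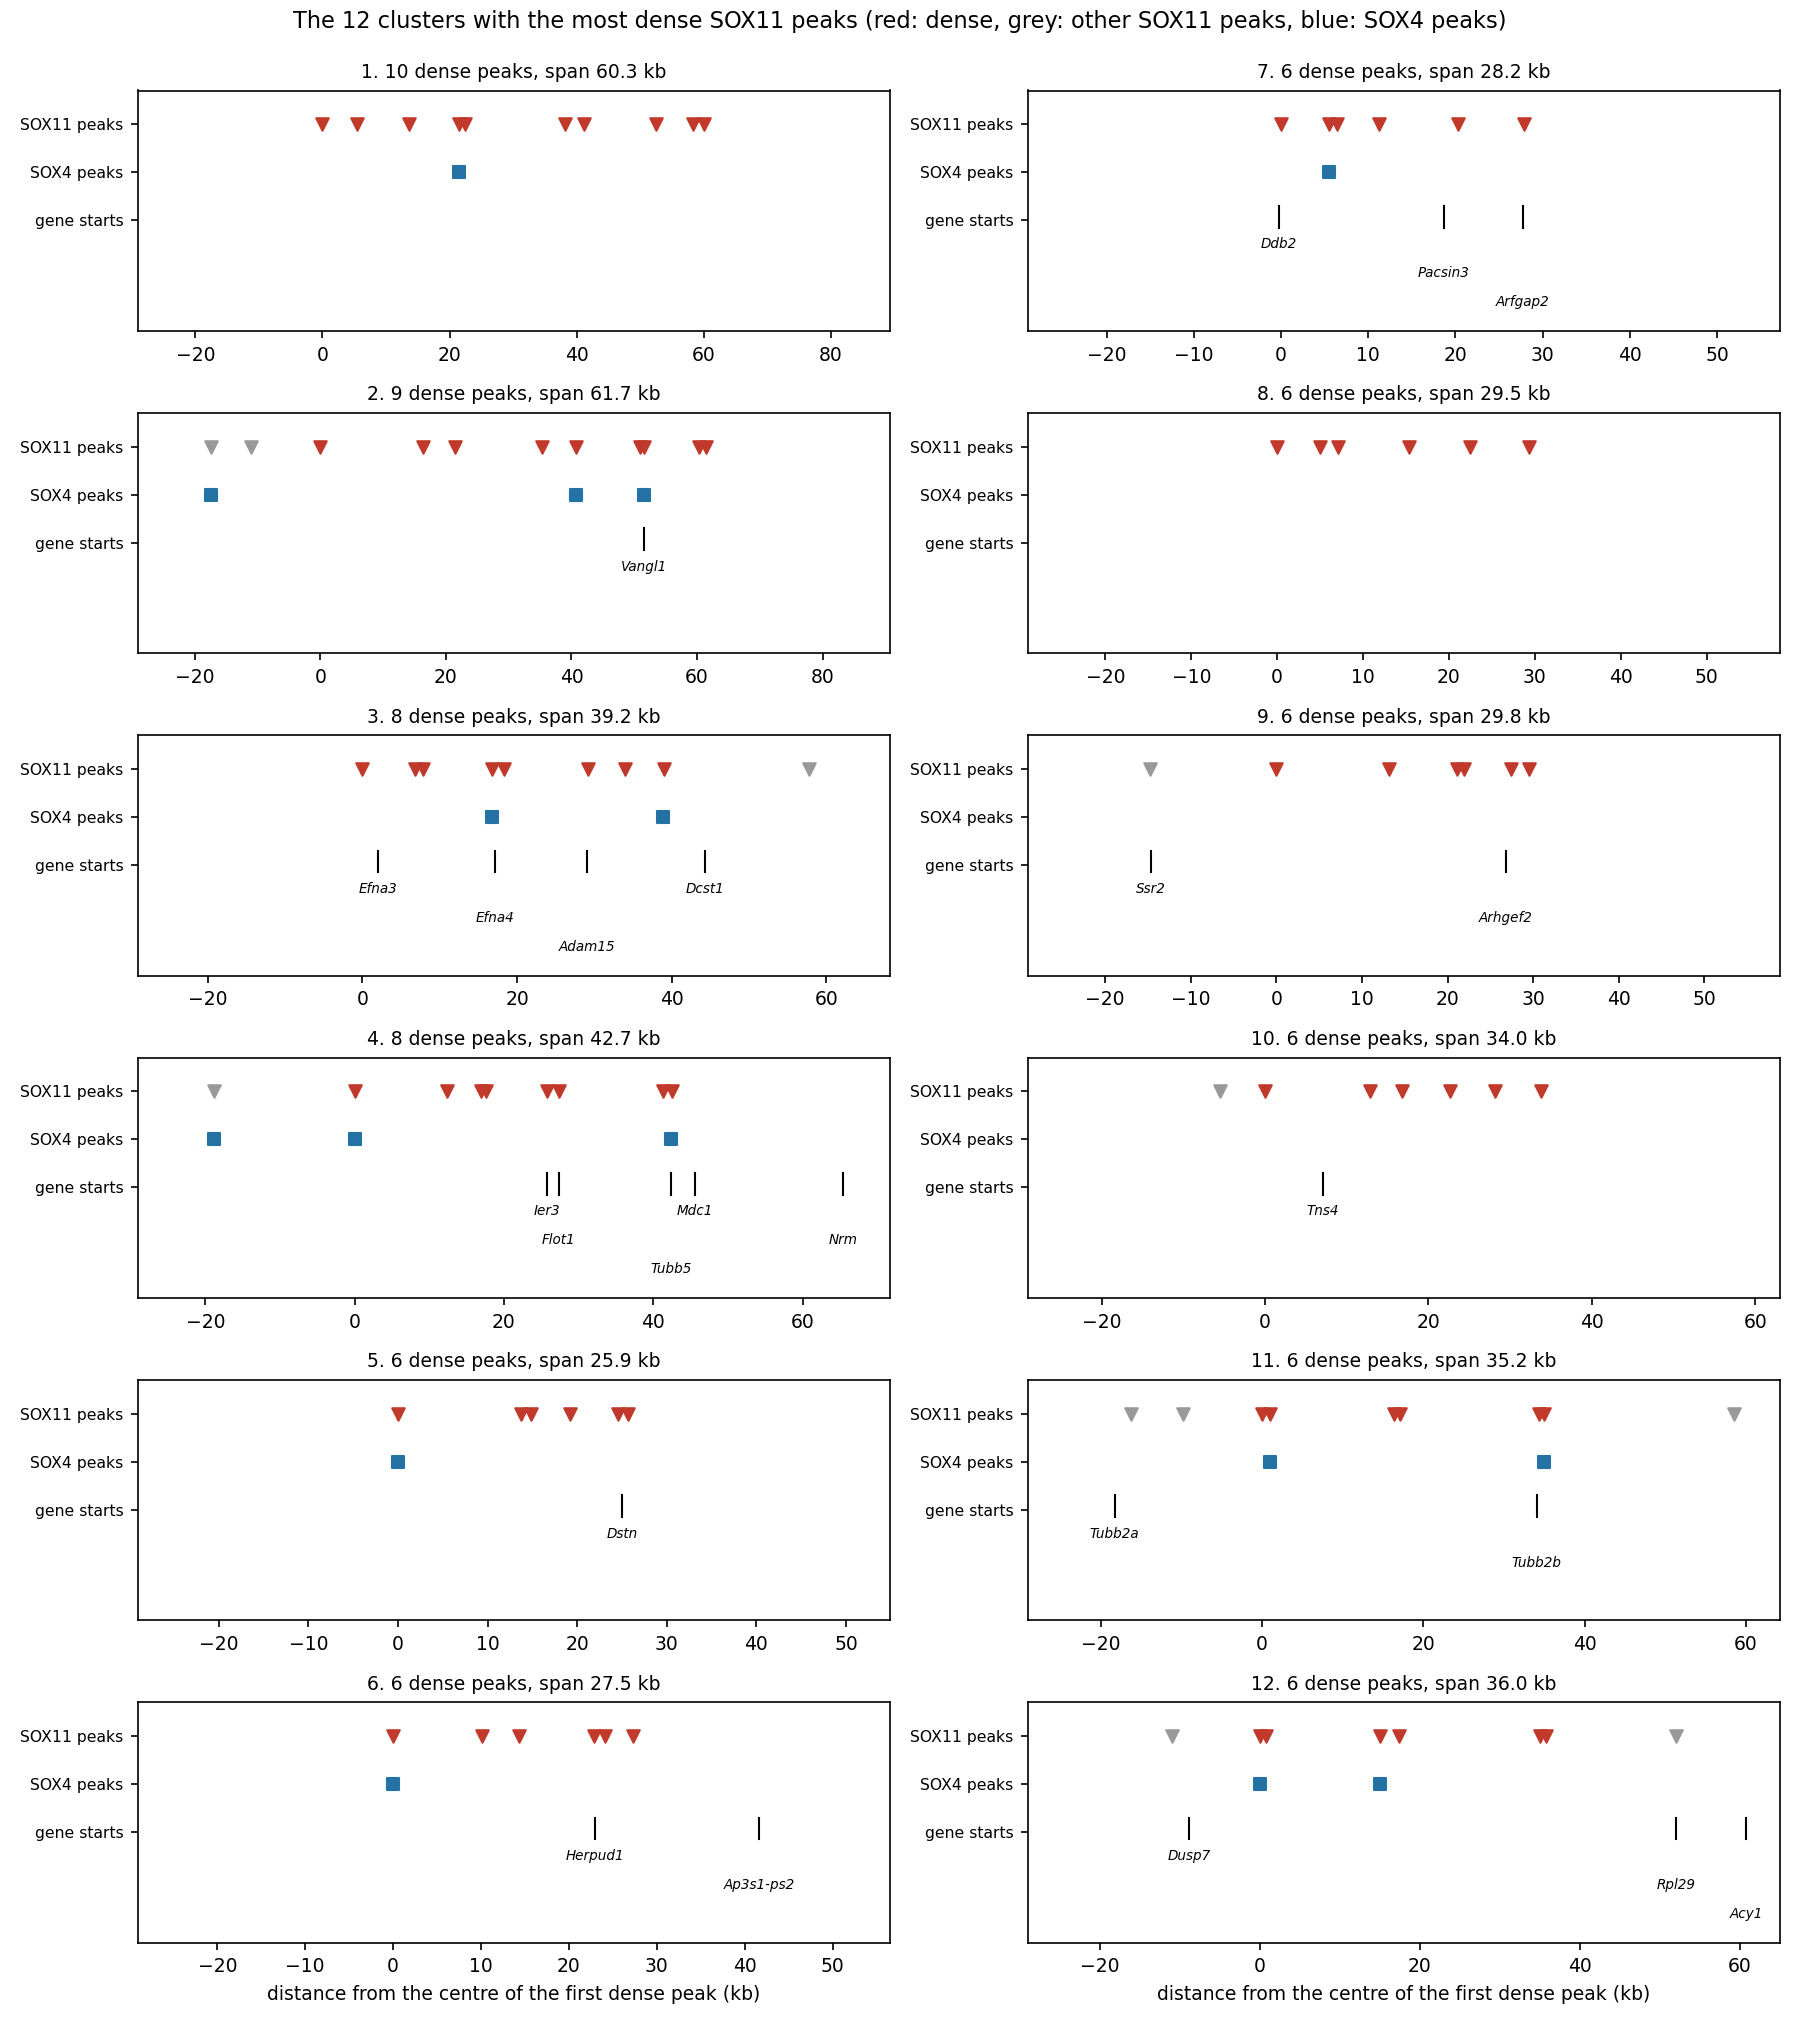
Maps of the 12 clusters with the most dense peaks, in the order of the text; the horizontal axis is the distance in kb from the centre of the first dense peak. Triangles are SOX11 peaks (red dense, grey others within 25 kb), blue squares SOX4 peaks and black ticks the outermost starts of protein-coding genes; SOX4 peaks lie over dense peaks in 9 of the 12 maps.

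By nearest start, the 516 dense peaks belonged to 255 protein-coding genes, 1.15% of the 22208 distinct symbols carried by the 22350 protein-coding genes of the annotation. Genes are counted by symbol throughout. There were 128 genes with 2 or more dense peaks and 18 with 5 or more. Besides *Cldn23* (10), *Vangl1* (8), *Dstn*, *Herpud1*, *Hs1bp3* and *Tns4* (6 each), *Arhgef2* and *Ier3* had 5. Others with 5 dense peaks were *Ablim1*, which encodes an actin-binding LIM protein, *Actbl2*, an actin-like gene, *Dst*, whose epithelial product ties keratin filaments to hemidesmosomes, and *Ddr1*, a collagen receptor kinase. The remaining genes with 5 were *Cuedc1*, *Iffo2*, *Ptgs2*, the inducible cyclooxygenase, *Vmp1*, a membrane protein of autophagy, *Zfp36l1*, a factor of mRNA decay, and *Zmiz1*, a transcriptional coregulator.

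These genes differed in how their dense peaks were placed. The 5 peaks of *Cuedc1* and the 5 of *Vmp1* were all intronic, whereas those of *Actbl2*, *Ptgs2*, *Zfp36l1* and *Zmiz1* were all intergenic. The distances were 31.9 to 64.9 kb for *Ptgs2*, 81.0 to 105 kb for *Zmiz1*, 99.1 to 122 kb for *Zfp36l1* and 329.8 to 358 kb for *Actbl2*, so that nearness alone ties these clusters to the genes. *Dst* had 4 intronic peaks and 1 promoter peak, and none overlapped a SOX4 peak. All SOX11 peaks nearest to *Dstn* (6), *Herpud1* (6) and *Arhgef2* (5) were dense, whereas *Zfp36l1* and *Zmiz1* each had 5 dense peaks among 18.

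Among gene groups listed for keratinocytes, 5 of 32 adhesion and actin cytoskeleton genes (15.6%) were the nearest gene of a dense peak, beside 1.15% of all protein-coding genes. Of the 32, 31 had at least 1 SOX11 peak, and 16.1% of those 31 had a dense one, beside 2.45% of the 10407 genes with a SOX11 peak. They included *Dst* with 5 dense peaks, *Itga3*, an integrin subunit, with 2, and *Fblim1* and *Pxn*, both of focal adhesions, with 1 each. In all, 89 protein-coding genes had a start inside a cluster. Dense peaks were also nearest to 1 of 12 AP-1 subunits (*Maff*, 1 peak 269 bp upstream of a start), to 1 of 18 genes of EGF receptor and MAPK feedback (*Dusp1*, 1 peak) and to 1 of 16 genes of TGF-β and SMAD signalling (*Tgif1*, 4 peaks 109 to 126 kb from its starts). All 4 of these *Tgif1* peaks lay in introns of another gene, *Dlgap1*, named after the values were seen. Nearness of a start alone ties them to *Tgif1*. The counts were 0 of 23 annotated keratinocyte transcription factors, 0 of 11 NRF2 targets and 0 of 19 cornified envelope genes. The transcription factor genes *Tfap2a* and *Tfap2c*, annotated under older symbols, had no dense peak either. The lists are short, and these counts carry no test.

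Dense peaks lay at promoters less often than other SOX11 peaks. A promoter was taken as 1 kb upstream to 100 bp downstream of a protein-coding transcription start, and 79 of 516 dense peaks had their centre in one (15.3%, 95% Wilson interval 12.5 to 18.7), beside 23.3% of all SOX11 peaks. Among the 20754 other peaks the share was 23.5% (22.9 to 24.1). The odds ratio was 0.589 (95% interval 0.463 to 0.750), with p = 6.92e-06 by a two-sided Fisher's exact test and 2.42e-05 after Benjamini-Hochberg adjustment over 7 such tests. Dense peaks lay between genes in 49.4% of cases against 39.8%, in introns in 31.2% against 33.5% and in exons in 4.07% against 3.32%. With 1 dense peak per cluster, the one with the lowest start, the odds ratio for promoters was 0.458 with p = 8.22e-05 by the same exact test. The result did not pass within the first 10% of the list, in a comparison chosen after the data were seen (19.1% of 89 against 25.8% of 2038, odds ratio 0.679, p = 0.173 and adjusted p = 0.203, Fisher's exact test). After the first 10%, likewise chosen after the data were seen, it passed (14.5% of 427 against 23.2% of 18716, odds ratio 0.562, adjusted p = 4.19e-05, Fisher's exact test). Among the 19 peaks with 6 or more others, set against all remaining peaks, the direction turned (odds ratio 1.18, p = 0.786, Fisher's exact test). The tests and Wilson intervals count peaks, which are not replicates, and they cover counting error alone.

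In the median, dense peaks were no farther from genes than the others. The median distance to the nearest start was 10.3 kb (quartiles 2.19 and 24.1) for dense peaks and 11.5 kb (0.449 and 43.9) for the others. Dense peaks had on average 1.34 (SD 1.52) protein-coding gene starts within 25 kb against 0.939 (SD 1.16), and 34.7% against 44.3% had none. The mean GC content of the peak sequences was 53.6% (SD 7.89) and 53.5% (SD 9.82). These are descriptions without a test.

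Dense peaks came early in the SOX11 list. The deposited list is not in genomic order and gives no score, and what its order stands for is not stated in the sources used here. Among its first 2127 peaks (10%) were 89 of 516 dense peaks (17.2%, 14.2 to 20.7), beside 10.0% of all SOX11 peaks. The odds ratio against the other peaks was 1.91 (1.52 to 2.42), with p = 3.30e-07 by a two-sided Fisher's exact test and an adjusted p of 2.31e-06. The median place was 6432 for dense and 10752 for other peaks. The odds ratio was 2.27 among promoter peaks and 1.87 among the rest, and 1.98 with 1 dense peak per cluster. Among the 19 peaks with 6 or more others it was 3.22 and did not pass (adjusted p = 0.246, Fisher's exact test). At a radius of 10 kb, 0 of 5 dense peaks were in the first 10%.

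SOX4 peaks overlapped dense peaks at a share near that of the list. An overlap of at least 1 bp was found for 76 of 516 dense peaks (14.7%, 11.9 to 18), beside 11.9% of all SOX11 peaks and 11.8% of the other peaks. The odds ratio of 1.29 (1.01 to 1.66) gave p = 0.0454 by a two-sided Fisher's exact test and did not pass after adjustment (0.106). With 1 dense peak per cluster the share was 17.2% of 203 and the odds ratio 1.56, with p = 0.0214 by the exact test and an adjusted p of 0.050, just under the threshold before rounding. In a comparison chosen after the data were seen, the direction turned once peaks were compared within parts of the list. In the first 10% of the list, 59.6% of 89 dense and 62.1% of 2038 other peaks overlapped a SOX4 peak, with an odds ratio of 0.900 and p = 0.656 by the exact test of Fisher. After the first 10% of the list, the shares were 5.39% of 427 and 6.31% of 18716, with an odds ratio of 0.845 and p = 0.482 by the same exact test. A p above the threshold does not show that the shares are equal.

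In the larger clusters, most dense peaks with SOX4 overlap were the first of their cluster in the SOX11 list. At least 1 dense peak overlapped a SOX4 peak in 64 of the 203 clusters (31.5%), of which 11 held a single dense peak and 11 had 2 or more overlapping ones. In clusters of 5 or more, 26 of 184 dense peaks overlapped a SOX4 peak (14.1%), beside 11.9% of all SOX11 peaks, so that fewer than 1 such peak fell to a cluster on average. Of these 32 clusters, 20 had an overlap, and in all 20 of them the dense peak that came first in the SOX11 list overlapped a SOX4 peak. Of the other 152 dense peaks of these 32 clusters, 6 did (3.95%, 1.82 to 8.34), against 20 of the 32 first-listed peaks (62.5%, 45.3 to 77.1). The first-listed peaks had a median place of 1396, and 22 of the 32 were in the first 10% of the list, where 62.0% of all SOX11 peaks overlapped a SOX4 peak. Of the other 152 dense peaks, 15 were in the first 10% (9.87%). After the first 10%, 6.29% of all SOX11 peaks overlapped a SOX4 peak. This comparison was made after the values were seen, and the part of list place in it was not tested. The 12 clusters without an overlap included those nearest to *Hs1bp3*, *Arhgef2*, *Tns4*, *Dst*, *Zfp36l1*, *Zmiz1* and *Ddr1*.

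**Figure D3:**
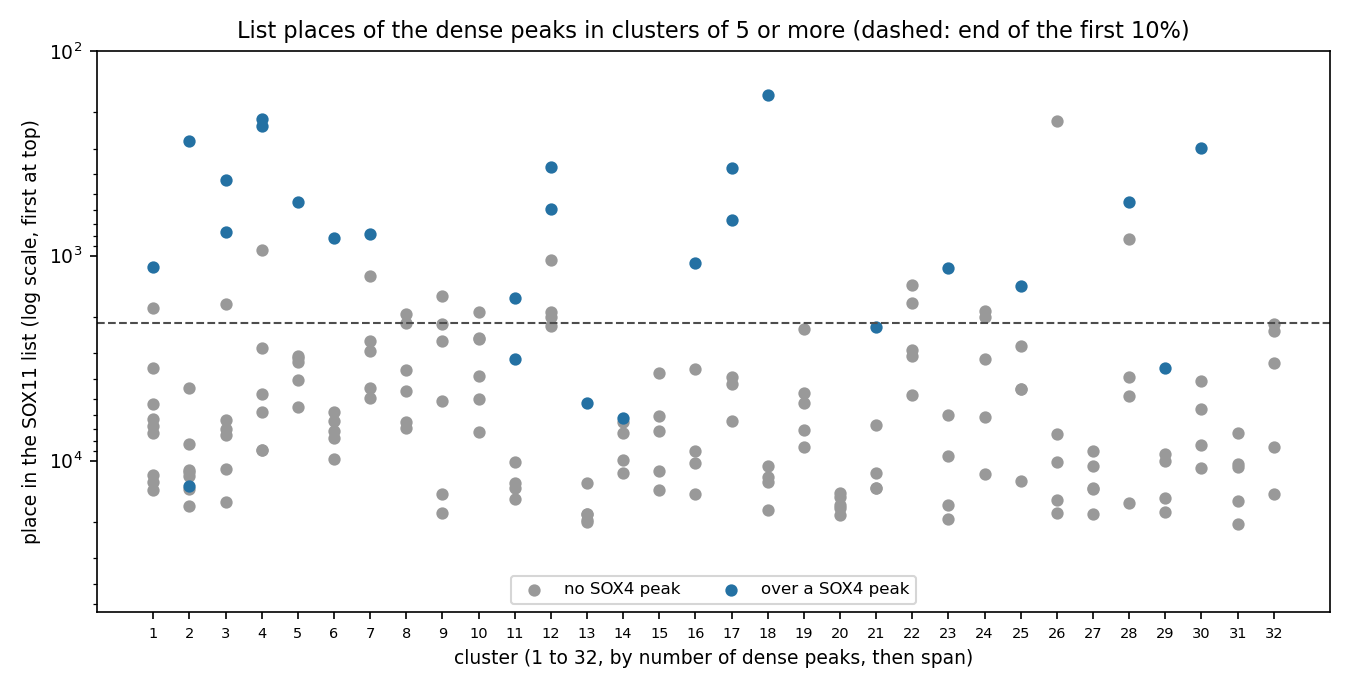
Place in the SOX11 list (log scale, first at the top) of each of the 184 dense peaks in the 32 clusters of 5 or more, numbered by size; the dashed line ends the first 2127 peaks. Blue points overlap a SOX4 peak: in 20 clusters the top point is blue, and 6 further points are.

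Motif content of the dense peaks was close to that of the list. Each core was searched for exact matches on both strands over the whole peak, and no core contains another. A SOX core was present in 319 of 516 dense peaks (61.8%), beside 58.5% of all SOX11 peaks, with an odds ratio of 1.15 against the others (p = 0.124, adjusted 0.174, Fisher's exact test). A TEAD core was present in 130 (25.2%), beside 22.8% of all, with an odds ratio of 1.14 (p = 0.203, adjusted 0.203, Fisher's exact test). The AP-1 core was found in 134 (26.0%), beside 28.5% of all, with an odds ratio of 0.876 (p = 0.200, adjusted 0.203, Fisher's exact test). The GC box was found in 70 (13.6%), beside 16.3% of all, with an odds ratio of 0.799 (p = 0.0913, adjusted 0.160, Fisher's exact test). None of the 4 passed the threshold of 0.05. In windows of equal width 2 kb away, of which 499 met no SOX11 peak, the shares were 28.9% for the SOX core, 4.61% for AP-1, 15.4% for TEAD and 1.80% for the GC box. Both a SOX and an AP-1 core were present in 15.5% of dense and 17.2% of other peaks, and neither in 27.7% and 30.2%.

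The AP-1 and SOX cores were also counted apart at promoters and elsewhere. Outside promoters an AP-1 core was present in 126 of 437 dense peaks (28.8%) and in 35.4% of the others, with an odds ratio of 0.738 (exact p = 0.00443 and adjusted p = 0.0103). At promoters it was present in 8 of 79 (10.1%) against 6.22%, an odds ratio of 1.70 that did not pass (p = 0.157, adjusted 0.183, Fisher's exact test), and the difference between both odds ratios was not tested. With 1 dense peak per cluster the AP-1 odds ratio was 1.20, in the other direction from that over all dense peaks. By cluster size, an AP-1 core was present in 31.6% of the 76 dense peaks that stood alone, in 28.9% of the 256 peaks in clusters of 2 to 4 and in 19.6% of the 184 in clusters of 5 or more. At promoters a SOX core was present in 41 of 79 dense peaks (51.9%) against 37.8% of the others, an odds ratio of 1.77 (p = 0.0137, adjusted 0.0320, Fisher's exact test). Outside promoters the SOX shares were 63.6% and 64.7%.

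**Figure D4:**
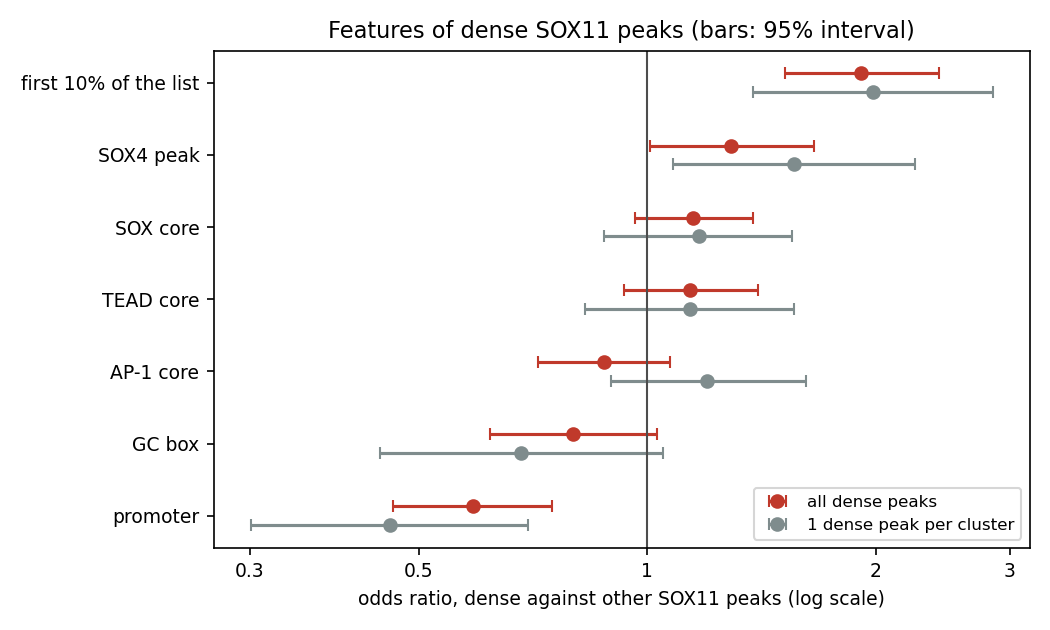
Odds ratios (log scale) of 7 features for dense against other SOX11 peaks, with 95% intervals from the logarithm of the ratio; red is for all 516 dense peaks and grey for 1 dense peak in each of the 203 clusters. The ratio is 1.91 for the first 10% of the list and 0.589 for promoters, and that of the AP-1 core lies at 0.876 in red and 1.20 in grey.

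The promoter share was lower and the share early in the list higher with each further neighbour up to 4, while the other features had no such order. The promoter share was 25.4% for peaks with no other within 25 kb, 23.9% with 1, 20.7% with 2, 17.6% with 3 and 15.2% with 4. The share in the first 10% of the list was 7.79%, 9.87%, 12.3%, 15.2% and 17.1% in the same order. Just outside and just inside the threshold, SOX4 overlap was 13.4% of 1457 peaks and 14.7% of 409, the SOX core was in 60.3% and 63.1%, the AP-1 core in 28.6% and 27.1%, the TEAD core in 23.5% and 25.9% and the GC box in 14.4% and 13%. The 107 peaks with 5 or more others had a promoter share of 15.9% (10.2 to 24), a share of 17.8% in the first 10% of the list (11.7 to 26.1) and SOX4 overlap in 15%. Among them the SOX core was in 57.0% (47.5 to 66.0), the AP-1 core in 21.5% (14.8 to 30.2), the TEAD core in 22.4% and the GC box in 15.9%, so that the promoter, SOX, TEAD and GC box shares turned back from their direction between 3 and 4 others. Only 19 of those had 6 or more others, too few for a separate point.

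**Figure D5:**
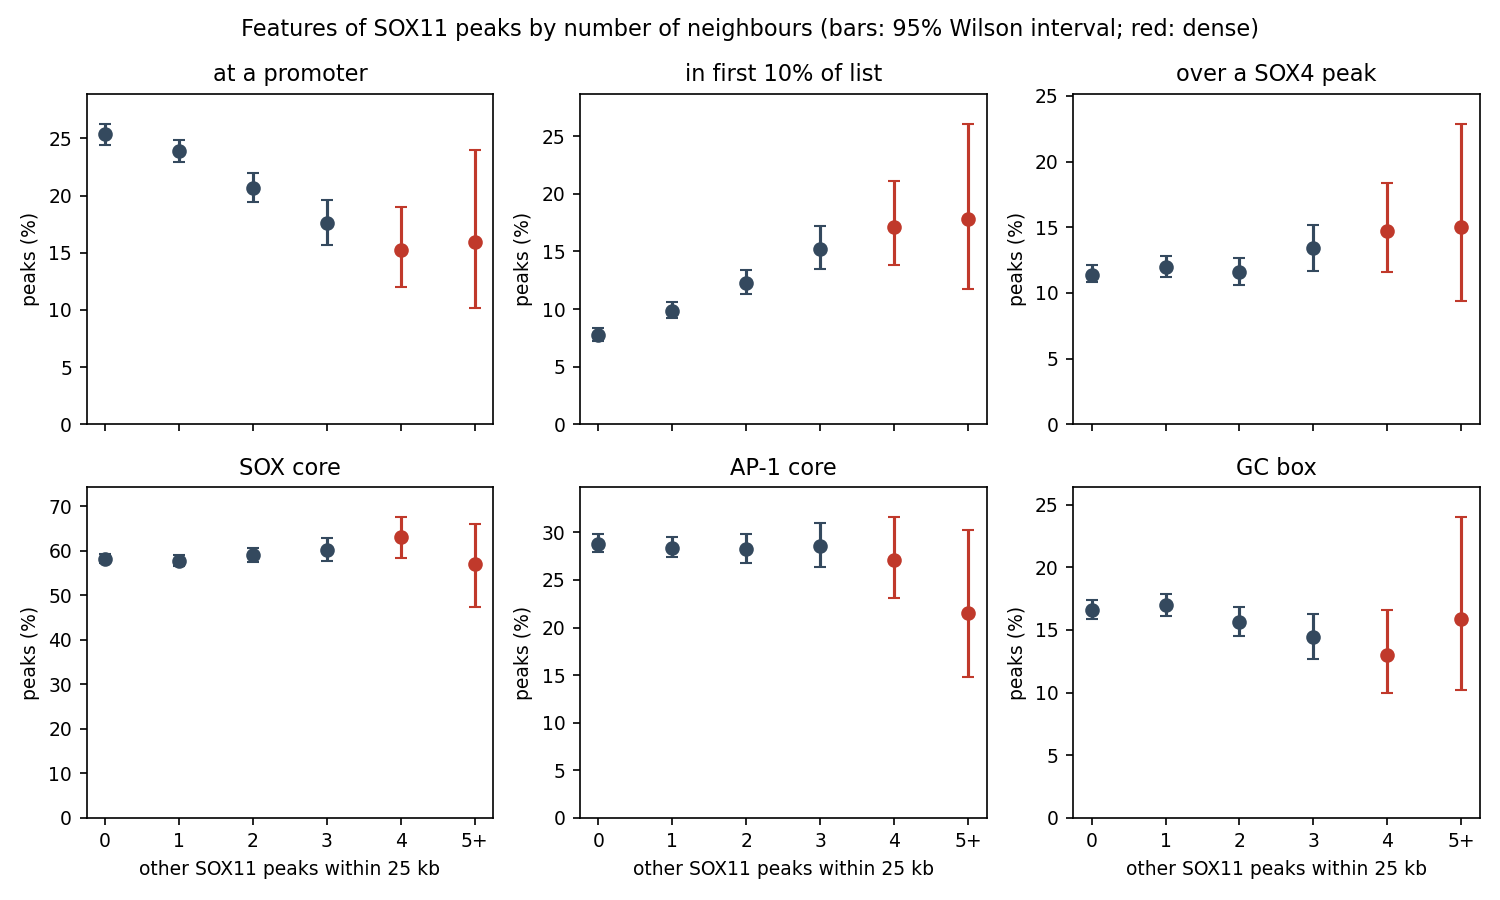
Percent of SOX11 peaks with each of 6 features by the number of other SOX11 peaks within 25 kb; points are shares, bars 95% Wilson intervals and red points the dense peaks. From 0 to 4 others the promoter share goes from 25.4% to 15.2% and the share in the first 10% of the list from 7.79% to 17.1%.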

How the data were processed

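The deposited values are start and end coordinates of peaks, with no score. Per the submitters' processing notes and the study's methods, the authors used Bowtie2 for alignment to mm9, Picard for the removal of duplicates, HOMER (factor style) for peak calling and bedtools for the removal of blacklisted regions; versions are not given in the sources used here. Each list combines 2 replicates. The control library was not analysed here.

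Deposited starts count from 0 and printed ones from 1. Neighbours, chaining, overlaps, promoters, nearest starts (GENCODE M1, protein-coding) and exact motif matches were computed with Python 3.11.15, numpy 2.4.6, scipy 1.17.1, pysam 0.24.0 and samtools 1.23.1, tested on simulated data, and drawn with matplotlib 3.10.9. A cluster spans its first to last dense peak. Intervals of odds ratios are normal on the log scale. Members and gene lists were chosen with earlier results of these data known.

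Named are the 12 clusters with the most dense peaks (ties: shorter span) and up to 6 genes in each, the 15 genes with the most dense peaks (3 more are tied with them) and listed genes with a start in a cluster; other listed genes with a dense peak were named after their counts were seen, and 1 listed gene is not reported here by name. There were 9 results, 85 alternatives set out at the start and 8 chosen after seeing the data.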

Additional observations from a re-analysis of the deposited data

How the results depend on the processing

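Over 9 results and 93 alternatives, 60 kept the direction and the side of the threshold, or a count within 1.5 times. The counts of dense peaks and clusters moved with the rule: 5 and 4 at a radius of 10 kb, 3651 and 890 at 50 kb, 1973 and 725 with 3 or more others, and 19 and 9 with 6 or more. With 5 peaks at 10 kb, the odds ratio was 0 for SOX4, promoters, the AP-1 core and the first 10% of the list, 0.473 for the SOX core, 5.07 for the TEAD core and 1.28 for the GC box; with 19 peaks it was 1.18 for promoters, 2.37 for the GC box and 3.22, no longer past the threshold, for the first 10% of the list. SOX4 overlap passed at 50 kb (1.17), with 3 or more others (1.21) and with 1 dense peak per cluster (1.56), and turned to 0.900 within the first 10% of the list and 0.845 after it, both chosen after seeing the data. With 3 or more others the SOX core (1.11) and the GC box (0.833) passed. With 4 or more others, as in the main rule, the shorter box CCGCCC passed (0.764). At promoters alone the SOX core (1.77) passed and AP-1 turned (1.70); outside them AP-1 passed (0.738), and the SOX core (0.954) and the GC box (1.19) turned. AP-1 also turned with 1 dense peak per cluster (1.20), TEAD with its 10-letter motif (0.921) and SOX with the core followed by TC (0.934). The promoter result did not pass within the first 10% of the list (0.679, chosen after seeing the data), where 89 peaks are dense. Apart from the smaller peak numbers, the cause was not tested.

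No paired analysis was possible because both replicates of a factor are combined in 1 list, and no replicate was left out for the same reason. The depth behind a peak is unknown.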

Other observations

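Clusters of 5 dense peaks outside the 12 described, picked here after their genes were seen, lay at further genes. At chr10:117147080-117166779, 3 of 5 dense peaks lay at promoters of *Mdm2*, the ubiquitin ligase of p53, and 1 of the 5 overlapped a SOX4 peak. At chr4:134023334-134047907, all 5 peaks held a SOX core, and 4 were nearest to *Stmn1*, which encodes a microtubule-destabilising protein. At chr11:100248962-100273518, 3 of 5 peaks were nearest to *Jup*, the gene of plakoglobin in desmosomes and adherens junctions, and none overlapped a SOX4 peak. At chr17:35834626-35862755, all 5 peaks were nearest to *Ddr1*, and the first-listed of them, at place 220, overlapped no SOX4 peak. A SOX4 peak had its centre in this span but overlapped none of the 5.

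By the same radius, the SOX4 list was sparser: 2295 of 2669 SOX4 peaks (86.0%) had no other SOX4 peak within 25 kb, and 6 had 3 others, the most found. Those 6 lay near *Ptma* and *Cdk19*, both named after the values were seen. The lists differ in size, so the shares are not comparable between the factors.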
